A study of Mus musculus with 38 samples.

Results

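The 10 genes described here belong to the TGF-beta pathway: the ligands *Tgfb1*, *Tgfb2* and *Tgfb3*, the latent TGF-beta binding protein *Ltbp1*, the receptors *Tgfbr1* and *Tgfbr2*, the signal transducers *Smad2* and *Smad3*, the SMAD repressor *Skil* and the target gene *Tgfbi*. They were chosen by name from 21938 protein-coding genes of the GENCODE M21 annotation (GRCm38/mm10), and each was given a window of its gene body plus 50 kb on both sides. Histone marks were read in these windows by MINT-ChIP, in which chromatin is barcoded sample by sample and then immunoprecipitated as 1 pool. The skin samples were epidermal stem cells (EpdSCs) of male K14rtTA; TRE-myc-Sox9 mice, in which the epidermal *Krt14* promoter drives rtTA and doxycycline (DOX), given from postnatal day 21, switches on MYC-tagged SOX9 in these cells. SOX9 is normally held to the hair follicle stem cells. Cells were sorted as negative for CD31, CD45, CD117, CD140a and CD34, high for CD49f and high for Ly6A. The groups were D0 (no induction) and, named for the weeks since DOX began, W1, W2, W6 and W12. All groups carried both transgenes. The W12 cells came from neonatal skin grafted onto immunocompromised hosts and not from the back skin of the transgenic mouse itself, so that at W12 the graft and the time of DOX cannot be told apart. The W12 libraries also share a sample record with 1 of the W2 replicates. A further set was cultured EpdSCs from newborn pups, labelled K14rtTA with TRE-myc-Sox9 variants, which per the study's methods were transduced with lentivirus carrying the SOX9 forms. These carried WT SOX9 without DOX, WT SOX9 with DOX, ΔHMG-SOX9 with DOX (no DNA-binding domain) or ΔTA-SOX9 with DOX (no transactivation domain).

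TGF-beta ligands are secreted in a latent complex, tethered to the matrix by LTBP proteins and released by integrins or proteases. The freed ligand joins TGFBR2 to TGFBR1, which phosphorylates SMAD2 and SMAD3. These enter the nucleus with SMAD4 and act on target genes, while SKIL and its relative SKI hold SMAD targets silent. In epidermis the pathway is best known for restraining keratinocyte proliferation. H3K4me1 marks enhancers, primed or active, and H3K27ac marks active enhancers and promoters.

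Each library was labelled as a high or a low MNase digest, and the lists are not split by digest. At D0, W1, W2 and W12 and in culture, the sample records of a mark differ in digest and are not separate replicates. Replicates had been merged before intervals were called. Each mark and time point therefore has 1 list of intervals and 1 value per gene, no comparison below has a replicate check, and no p-value is given. Intervals of 95% are exact and cover counting error only. A weaker mark in all cells and the loss of a mark from some of the cells cannot be told apart in pooled lists.

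Sequence of 300 bases, on the plus strand of GRCm38.p6 (RefSeq) and centred on the H3K27ac summit, is given for the 6 peaks on which the results below turn. Capitals mark matches, on either strand, to 5 motifs: the SMAD box pair GTCTAGAC, the SMAD element CAGACA, the AP1 motif TGANTCA, the SOX motif ACAAAG and the RUNX motif ACCACA. The first pair lies at *Tgfbr2*, where acetylation was highest at D0 and lower later, at the start site (chr9:116174554-116174853) and in an intron 20.3 kb inside the gene (chr9:116153611-116153910). The next pair lies in the *Smad3* window and was called at W2, W6 and W12 but at neither D0 nor W1, in an intron of the neighbour *Aagab* (chr9:63632933-63633232) and in an intron of *Smad3* itself (chr9:63674803-63675102). The last pair is the peak 38.7 kb downstream of the *Skil* start site, strongest at W12 (chr3:31134863-31135162), and a peak 19.7 kb upstream of *Tgfbi* that was called at every time but D0 (chr13:56588149-56588448).
Tgfbr2 start site: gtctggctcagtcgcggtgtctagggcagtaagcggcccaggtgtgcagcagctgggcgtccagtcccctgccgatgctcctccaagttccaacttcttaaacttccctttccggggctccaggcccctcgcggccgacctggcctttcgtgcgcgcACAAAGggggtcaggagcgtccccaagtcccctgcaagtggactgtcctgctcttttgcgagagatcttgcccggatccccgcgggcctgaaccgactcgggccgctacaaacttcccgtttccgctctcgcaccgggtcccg
Tgfbr2 intron: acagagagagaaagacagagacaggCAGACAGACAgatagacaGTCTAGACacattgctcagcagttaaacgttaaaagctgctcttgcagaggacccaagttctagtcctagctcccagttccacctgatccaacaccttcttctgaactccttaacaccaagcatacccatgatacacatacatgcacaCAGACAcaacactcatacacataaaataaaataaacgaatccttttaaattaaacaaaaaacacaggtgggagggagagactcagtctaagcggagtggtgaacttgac
Smad3 window, Aagab intron: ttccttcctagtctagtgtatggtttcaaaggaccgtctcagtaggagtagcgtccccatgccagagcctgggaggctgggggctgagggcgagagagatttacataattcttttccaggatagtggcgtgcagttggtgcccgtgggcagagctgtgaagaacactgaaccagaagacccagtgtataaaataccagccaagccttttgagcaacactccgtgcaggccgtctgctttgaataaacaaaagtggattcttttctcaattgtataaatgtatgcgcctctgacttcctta
Smad3 intron: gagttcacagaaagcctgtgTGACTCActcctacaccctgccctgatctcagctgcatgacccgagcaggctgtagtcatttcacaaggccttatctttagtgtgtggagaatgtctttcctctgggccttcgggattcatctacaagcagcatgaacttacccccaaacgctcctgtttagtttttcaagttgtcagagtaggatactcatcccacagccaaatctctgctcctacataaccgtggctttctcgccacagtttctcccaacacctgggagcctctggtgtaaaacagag
Skil downstream: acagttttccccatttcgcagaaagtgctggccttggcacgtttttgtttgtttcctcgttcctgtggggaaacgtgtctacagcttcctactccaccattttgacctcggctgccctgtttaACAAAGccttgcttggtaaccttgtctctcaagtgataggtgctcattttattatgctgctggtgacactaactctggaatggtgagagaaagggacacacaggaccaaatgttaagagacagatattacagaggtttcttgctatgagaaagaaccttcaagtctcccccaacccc
Tgfbi upstream: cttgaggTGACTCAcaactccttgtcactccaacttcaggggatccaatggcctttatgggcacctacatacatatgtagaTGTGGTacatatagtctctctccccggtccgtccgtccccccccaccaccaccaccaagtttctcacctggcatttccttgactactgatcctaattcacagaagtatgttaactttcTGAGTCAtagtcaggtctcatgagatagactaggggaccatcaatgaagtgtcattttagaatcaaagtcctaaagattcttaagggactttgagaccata

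The *Tgfbr2* intron holds 1 SMAD box pair and 3 SMAD elements, 2 of which overlap each other. The SMAD box pair was present in 0.311% of all D0 peak windows of this length and the SMAD element in 25.4%. The *Tgfbi* sequence holds 2 AP1 motifs and 1 RUNX motif, and the *Smad3* intron 1 AP1 motif. Over all W2 peak windows the AP1 motif was present in 9.34% and the RUNX motif in 18.02%. The *Tgfbr2* start site and the *Skil* sequence hold 1 SOX motif each, present in 20.7% of D0 windows and 22.9% of W12 windows. No match to any of the 5 motifs lies in the *Aagab* intron sequence. A match describes letters only.

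The H3K4me1 lists of skin held 69439 to 87287 domains (D0 the most, W1 the fewest), the H3K27ac lists 29081 to 33985 peaks and the culture lists 110589 to 123338 domains. The H3K27ac lists differed in depth. The background pileup recovered from them lay between 0.299 fragments (W1) and 0.677 (W6), and the smallest pileup called between 7.39 times background (W6) and 10.04 (W1). Weak peaks were therefore the hardest to call at W1. The EpdSC identity of the cells was checked at the start sites of marker genes: H3K27ac peaks lay within 1000 bp of all 6 epidermal markers (*Krt5*, *Krt14*, *Trp63*, *Itga6*, *Itgb4*, *Ly6a*) in every list. Of all genes, 36.2% to 48.4% had such a peak. Over the start site itself a peak was called for 5 of the 6 from D0 to W6 (not *Itga6*) and for 4 at W12 (not *Krt5* either). None of 9 markers of the cells removed by the sort had a peak over its start site in any list, and within 1000 bp only *Dct* at W1 and *Pecam1* and *Mitf* at W6 and W12 did. Of 4 hair follicle stem cell markers, *Krt15* had a peak within 1000 bp of a start site at D0, W1, W2 and W6 and *Lhx2* at W2, while *Cd34* and *Lgr5* had none in any list.

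At D0 the windows of the 10 genes were more widely marked than that of the median gene. The median share of a window covered by H3K4me1 was 42.4%, against 18.3% over all protein-coding genes, and it lay between 29.9% and 40.5% at the later times, against 15.1% to 16.2%. H3K27ac covered a median of 3.31% at D0 (all genes 1.42%) and 3.78%, 2.24%, 3.39% and 3.55% at W1, W2, W6 and W12. *Tgfbi*, *Smad3* and *Tgfb3* had the widest H3K4me1 at D0 (58.1%, 53.8% and 53.6%), and *Ltbp1*, by far the longest gene, the narrowest (13.1%). For H3K27ac, *Tgfb1* (8.70%) and *Tgfbr2* (8.19%) led at D0.

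**Figure D1:**
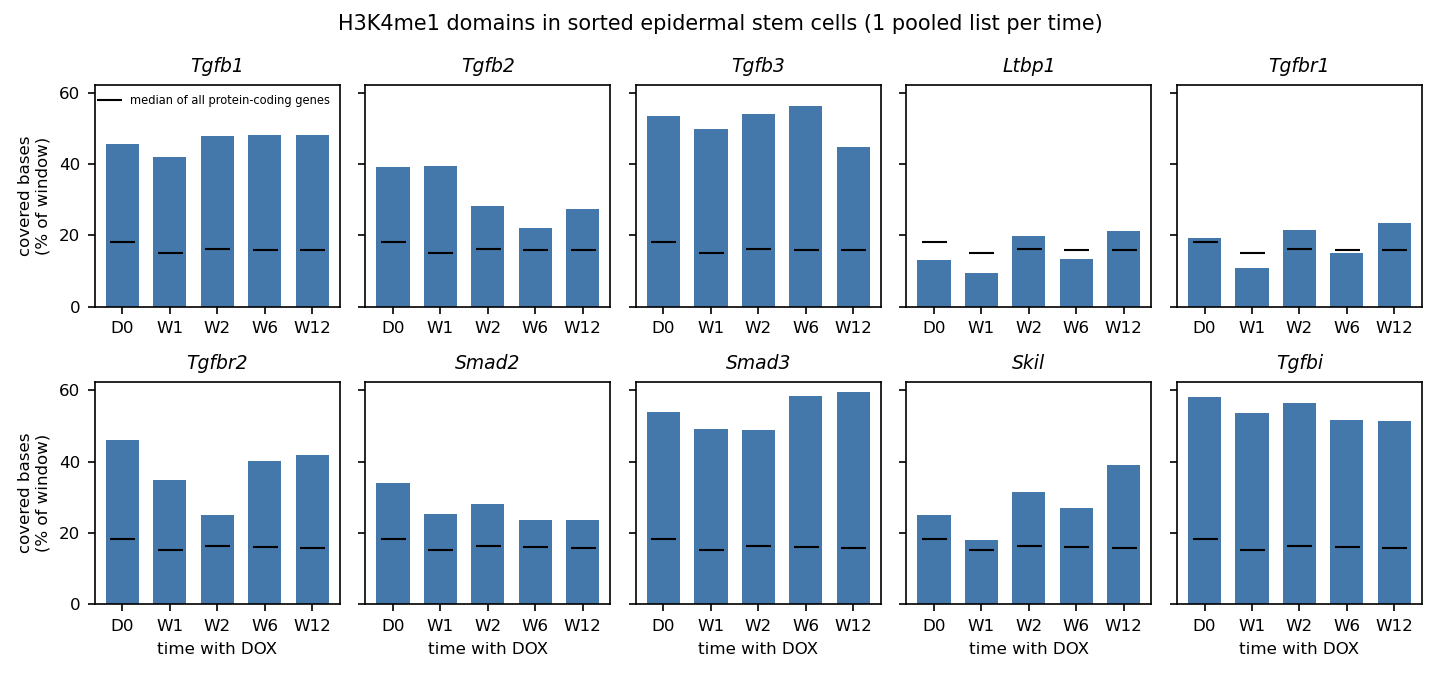
Share of each gene's window covered by H3K4me1 domains (vertical axis, percent) at D0, W1, W2, W6 and W12 (bars, 1 pooled list each), with the median over all protein-coding genes as a dash. Tgfbi, Smad3, Tgfb3 and Tgfb1 are at or above 42.0% in every list, Tgfb2 goes from 39.2% at D0 to 22.2% at W6, and Ltbp1 from 13.1% to 21.3% at W12.

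**Figure D2:**
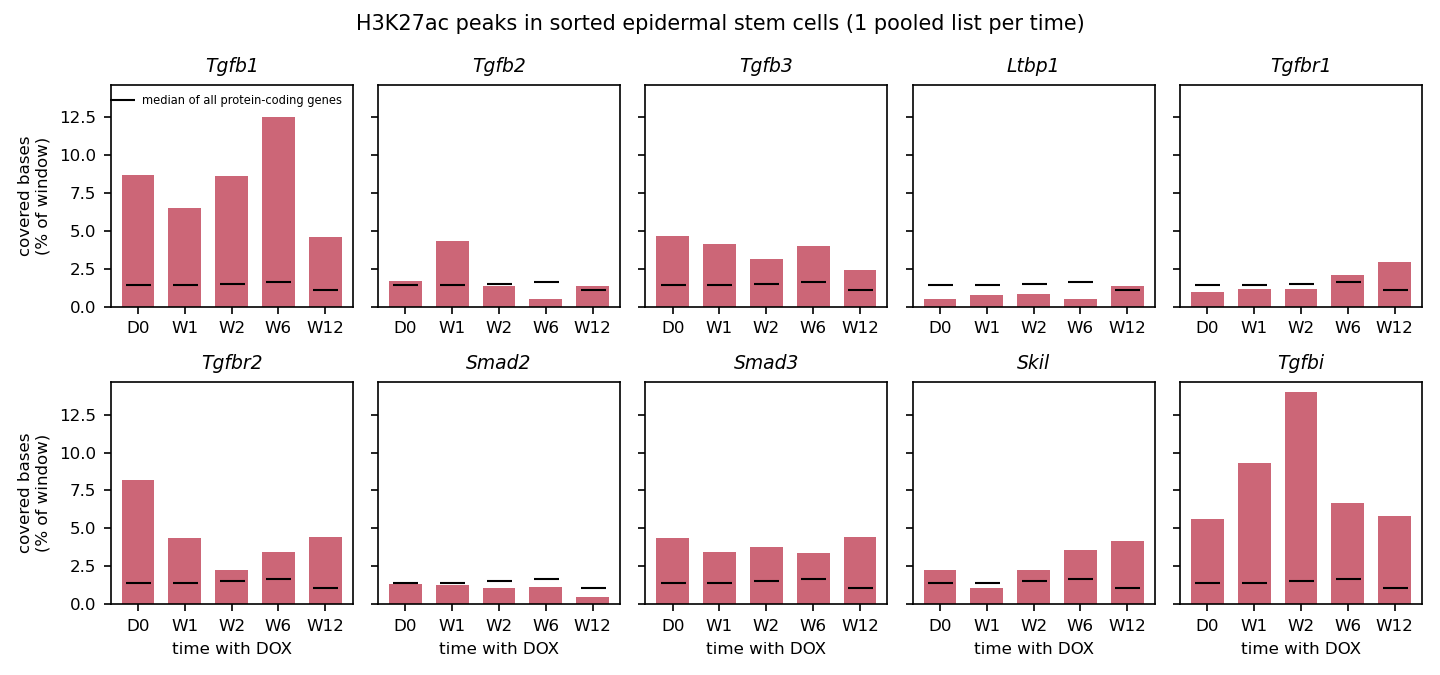
Share of each gene's window covered by H3K27ac peaks (vertical axis, percent) at the 5 times (bars, 1 pooled list each), with the median over all protein-coding genes as a dash. Tgfbr2 is highest at D0 (8.19%) and lowest at W2 (2.22%), while Tgfbi is highest at W2 (13.96%).

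Among the ligands, *Tgfb2* had less H3K4me1 at W2, W6 and W12 than at D0, and *Tgfb1* and *Tgfb3* had less H3K27ac at W12. Such falls were common: 40.5% of all protein-coding windows had at least 1.5-fold fewer H3K27ac bases at W12 than at D0. For H3K4me1 the share was 19.7% at W2, 18.7% at W6 and 19.8% at W12. *Tgfb1*, the most widely expressed ligand, lies on chromosome 7 (chr7:25687002-25705077, plus strand) in a dense stretch whose window holds 6 other genes. Its H3K4me1 cover, in the order D0, W1, W2, W6 and W12 that is kept below where no time is named, was 45.6%, 42.0%, 47.8%, 48.1% and 48.3%, and all 8 merged H3K4me1 elements were called in every list. H3K27ac covered 8.70%, 6.50%, 8.60%, 12.5% and 4.58% of the window in the same order, so that W6 was high and W12 low. The strongest peak of the window was not at *Tgfb1*. In 4 of the 5 lists it was at the start site of *Hnrnpul1*, an RNA-binding protein gene. The fold enrichment in the authors' lists is the summit pileup over background, with 1 added to both. For the *Hnrnpul1* peak it was 17.3 at D0 (95% interval 11.4 to 25.3) and 5.67 at W12 (2.70 to 10.9), fold intervals that do not overlap. Over background alone it stood at 49.94 (32.3 to 73.7) and 17.01 (6.84 to 35.1), and those intervals overlap. At W12 the strongest was a 0.481 kb peak in an exon of *Bckdha*, at 9.21. The peak nearest to *Tgfb1*, beginning 0.161 kb inside the gene and reaching an exon (chr7:25687163-25689852), had folds of 11.3, 9.24, 11.2, 10.7 and 4.25. Its W12 interval (1.86 to 8.98) overlapped that of D0 (6.761 to 17.98).

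*Tgfb2*, on the minus strand of chromosome 1 (chr1:186622792-186705989), had H3K4me1 over 39.2%, 39.4%, 28.4%, 22.2% and 27.4% of its window. D0 and W1 were alike and the 3 later lists lower. The domain behind the gene's 3' end (chr1:186579401-186590200) went from 10400 bp covered at D0 to 4400 bp at W2 and 4600 bp at W6, and the long intronic domain 28.4 kb inside the gene from 11200 bp to 7000 bp and 5600 bp. An exonic domain 55.0 kb inside the gene (chr1:186649601-186651000) was called at D0 only. The domain over the start site stayed between 5800 bp and 7400 bp. H3K27ac was sparse: 5, 11, 2, 1 and 4 peaks. In all 5 lists the strongest peak of the window lay at the start site of the neighbour *Rrp15*, 42.5 kb upstream, with folds of 14.7, 8.47, 7.72, 10.1 and 5.67. A peak over the start site of *Tgfb2* itself was called only at D0 (fold 4.66) and W12 (5.67). An intronic peak 1.94 kb inside the gene (fold 3.998) was called at D0 only. The rise in cover at W1 (1.69% to 4.34%) went with more small peaks, among them 6 that no other list had, at folds between 3.06 and 4.62.

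*Tgfb3*, on the minus strand of chromosome 12 (chr12:86056745-86079041) between *Ttll5* and *Ift43*, had H3K4me1 over 53.6%, 49.9%, 54.1%, 56.3% and 44.8% of its window and a domain over its start site in every list. H3K27ac cover was 4.70%, 4.16%, 3.16%, 3.98% and 2.39%. The peak at the *Tgfb3* start site (chr12:86078642-86079905) had folds of 5.998, 4.62, 9.12 and 5.37 from D0 to W6 and was not called at W12. The strongest peak from D0 to W6 was the start site of *Ift43*, an intraflagellar transport gene, and that too was not called at W12. At W12 the strongest was instead a peak in an exon of *Ttll5*, 66.2 kb from the *Tgfb3* start site and at fold 14.9 (9.36 to 22.6), against 6.66 at D0. A peak in an intron of *Ift43* 11.1 kb upstream, at fold 3.998, was called at D0 only.

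*Ltbp1*, which anchors the latent ligand in the matrix, had the largest relative gain in H3K4me1 cover of the 10 genes, at W12. The gene lies on the plus strand (chr17:75005568-75392512) in a window of 486.9 kb. H3K4me1 cover was 13.1%, 9.36%, 19.7%, 13.3% and 21.3%, so that W2 and W12 were high and W1 low, with 22, 14, 32, 27 and 32 domains. A domain 294.6 kb inside the gene (chr17:75300201-75315000) had 5000, 3200, 14400, 10400 and 12200 bp covered, and an intronic domain at 189.0 kb went from 800 bp to 2400 bp, 3600 bp and 6200 bp. 3 domains were absent at D0 and called at W2, W6 and W12. The pair of them at 137.2 kb and 141.2 kb lies in an intron and was absent at W1 too. The third, 44.8 kb upstream of the gene (chr17:74959001-74960800), was already called at W1 and was one of the intervals shared with culture, described below. An intronic domain at 222.8 kb was called at D0 only. None of these 4 carried H3K27ac in any list. H3K27ac had 1 strong intronic peak, 104.4 kb inside the gene (chr17:75109939-75112225), called in every list with folds of 16.7, 6.16, 11.9, 13.1 and 16.3 and thus as strong at W12 as at D0. Cover by H3K27ac was 0.517%, 0.771%, 0.870%, 0.524% and 1.40%, and of the places called at W12 6 were called in no other list. Intronic peaks at 47.4 kb (fold 5.998) and 230.0 kb (4.53) were called at D0 only. No list had an H3K27ac peak within 1000 bp of a start site of *Ltbp1*.

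*Tgfbr1*, the type I receptor (chr4:47353222-47414931, plus strand), had little H3K27ac, and that mostly late. Its cover was 0.976%, 1.18%, 1.19%, 2.11% and 2.94%, with 3, 3, 2, 7 and 8 peaks. The peak over its start site (chr4:47352229-47353999) was called in every list, with folds of 5.998, 9.24, 5.61, 8.35 and 4.96 and no order in time. The strongest peak at D0 lay 54.1 kb inside the gene (6.66) and was gone at W12, where the strongest was a 0.419 kb intronic peak at 17.3 kb (7.08) that no other list had. H3K4me1 covered 19.3%, 11.01%, 21.5%, 15.0% and 23.5%. Domains at 15.6 kb (intron) and 48.6 kb (exon) were called at D0 only, and domains at 76.0 kb and 86.6 kb, behind the 3' end, only from W2 on. The D0-only domain in the intron holds the W12 peak at 17.3 kb.

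*Tgfbr2*, the type II receptor that binds the ligand (chr9:116084293-116175360, minus strand), had less H3K27ac at every later time than at D0. Its cover was 15654, 8364, 4234, 6504 and 8438 bp of the window, with 17, 9, 5, 7 and 11 peaks. D0 was high and W2 lowest, with a partial return by W12. It was the only one of the 10 genes past the 1.5-fold limit used below in the same direction at all 4 later times, and it stayed so under each of the 4 alternatives tried for H3K27ac cover. Of all protein-coding windows, 3.27% were past it as lower in H3K27ac at all 4 times, and 4.01% as higher.

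The peak over the *Tgfbr2* start site (chr9:116173962-116176950) had folds of 30.0 (95% interval 22.0 to 40.0), 13.1 (7.81 to 20.8), 14.03 (8.73 to 21.5), 16.1 (10.7 to 23.3) and 19.1 (12.7 to 27.7). The D0 interval did not overlap those of W1 and W2, and it overlapped those of W6 and W12. The intronic peak 20.3 kb inside the gene (chr9:116152265-116155097) had folds of 19.99 (13.6 to 28.4), 7.70 (3.94 to 13.9), 5.61 (2.68 to 10.8), 5.96 (3.05 to 10.8) and 9.92 (5.61 to 16.5). Here W2 and W6 lay below D0 without overlap. Of the upstream peaks, that at 43.1 kb (chr9:116218482-116220046) went from 17.3 (11.4 to 25.3) to 5.39 (2.47 to 10.8), 9.12, 8.95 and 7.79, and that at 48.2 kb from 18.7 to 9.24, 14.03, 16.7 and 9.92. The latter was the strongest of the window at W6. The fold adds 1 to both pileup and background and so reads lower in a shallow list. Divided by the background alone, the start site stood at 87.9 (63.9 to 118.0), 53.5 (30.6 to 87.0), 44.7 (26.9 to 69.8), 38.4 (25.1 to 56.3) and 63.2 (41.3 to 92.6) times background. On this scale only W6 is free of overlap with D0. The intronic peak stood at 57.9, 30.1, 16.5, 13.3 and 31.6, with W2 and W6 again below D0 without overlap. All 5 *Tgfbr2* peaks called in every list were below their D0 value at all 4 later times on this scale, whereas by fold 1 of them was above it at W6.

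**Figure D3:**
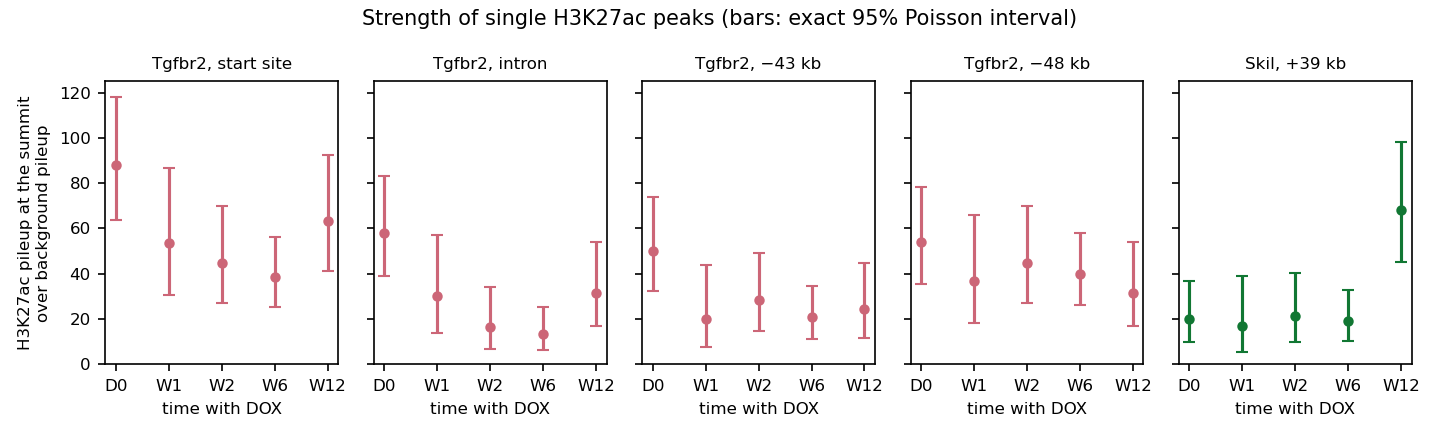
Summit pileup of single H3K27ac peaks divided by the background pileup of the list (vertical axis, times background) at the 5 times, for 4 peaks of the Tgfbr2 window and 1 of the Skil window, where bars are exact 95% Poisson intervals. The Tgfbr2 peaks are highest at D0 (87.9 at the start site), and the Skil peak stands at 16.7 to 21.2 until W6 and at 68.0 at W12.

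Of the 16 merged H3K27ac elements of the *Tgfbr2* window called at D0, 8 were called in no later list. Over the 10 windows it was 18 of 68, against 22.3% of all elements of D0. They were weak, with folds from 3.33 to 5.33, and lay on both sides of the start site, from 46.3 kb upstream to 49.0 kb inside the gene. Of the 15 D0-only peaks in all windows with a recovered pileup, 10 stood at or under 10.04 times background. That was the smallest pileup of the W1 list, so that a peak of that height need not have been callable there. The smallest pileups of the other later lists were lower, at 9.41 (W2), 7.39 (W6) and 9.72 (W12). All 15 stood above that of W6, the lowest at 7.99. Why the peaks were missing from those lists was not tested. The 5 of them above 10.04 lay in *Tgfbr2* (3), *Ltbp1* and *Smad3*. H3K4me1 of the *Tgfbr2* window was also lowest at W2: 46.0%, 34.8%, 24.9%, 40.2% and 41.8%. Of the 8 D0-only peaks, 5 overlapped an H3K4me1 domain in all 5 lists, 2 in every list but W2, and 1 (49.0 kb inside the gene) at W6 only. Domains at 78.4 kb (intron) and 45.4 kb (exon) were called at D0 only, and 1 domain 23.2 kb upstream only from W2 on.

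**Figure D4:**
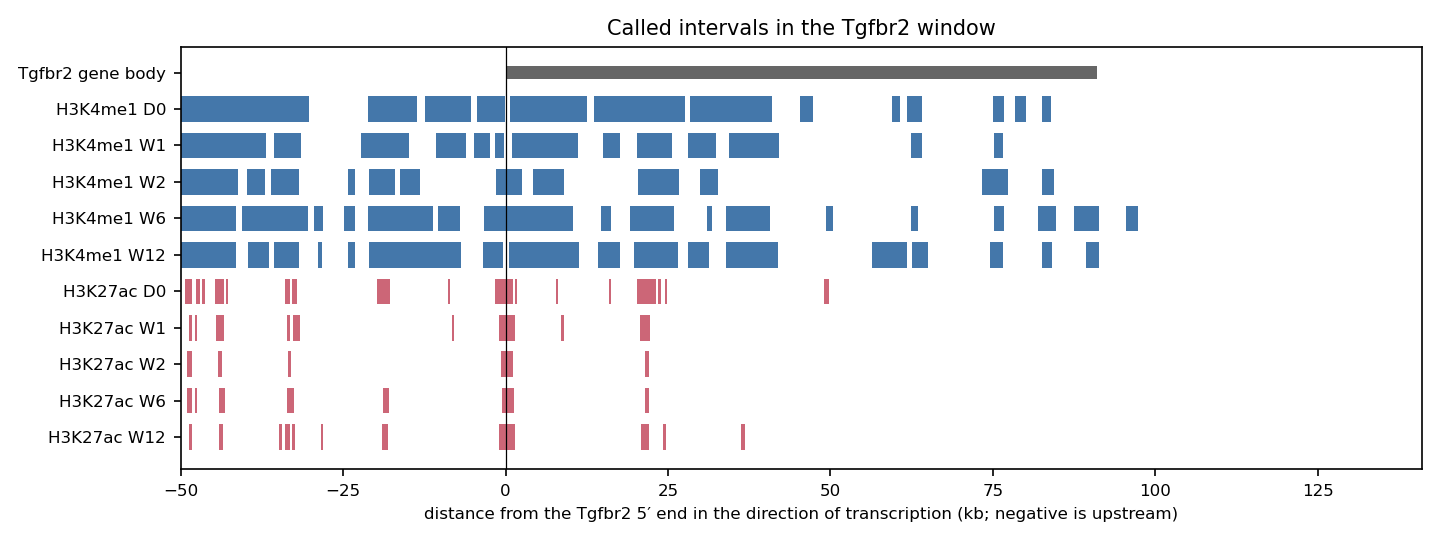
Called intervals in the Tgfbr2 window by distance from the 5′ end of the gene (horizontal axis, kb, negative upstream), 1 row per pooled list, H3K4me1 above H3K27ac and the gene body on top. Of 17 H3K27ac peaks at D0, 5 remain called at W2, at the start site, 20.3 kb inside the gene and at 3 places upstream.

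*Smad2*, on the plus strand of chromosome 18 (chr18:76241580-76310963) with no other gene in its window, had few peaks. Its start site carried an H3K27ac peak in every list, with folds of 11.99, 7.70, 8.42, 5.96 and 6.38, highest at D0, and 95% intervals that overlapped that of D0 at each time (7.27 to 18.8 at D0, 3.05 to 10.8 at W6). At W12 it was the only peak of the window, and cover fell from 1.30% at D0 to 0.491%. H3K4me1 covered 33.9%, 25.2%, 28.2%, 23.5% and 23.5%. No H3K4me1 domain covered the 5' end of the gene, where this peak lies, in any list. A domain beginning 1.02 kb inside the gene reached 21.6 kb at D0 and 22.6 kb at W2. At D0, W1 and W2 it covered another annotated start site, further inside *Smad2*. At W6 and W12 no domain covered any of the gene's start sites, and in every list a domain lay within 1000 bp of one. Domains at 69.6 kb and 100.6 kb, beyond the 3' end, were called at D0 only.

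*Smad3*, on the minus strand of chromosome 9 (chr9:63646767-63757994), was among the most widely marked genes at every time (H3K4me1 53.8%, 49.2%, 49.0%, 58.2% and 59.4%), and its H3K27ac cover was near level (4.36%, 3.41%, 3.79%, 3.37% and 4.41%). Within that level cover single peaks came and went. The start site peak was strongest at D0 (fold 10.7, then 3.85, 4.91, 8.95 and 7.08). An intronic peak 10.2 kb inside the gene went from 5.998 at D0 to 13.3 at W2 and back to 7.75 and 7.79. The intronic peak 82.3 kb inside the gene (chr9:63674562-63675685), whose sequence is given above, was called only from W2 on, with folds of 7.72, 8.95 and 9.21 and standing at 23.5 (11.3 to 43.3), 20.7 (11.3 to 34.7) and 29.2 (15.1 to 50.9) times background. The lower ends of all 3 intervals lie above the smallest pileup called at D0 (7.99 times background) and at W1 (10.04). Why the peak was not called in those lists was not tested. It sits in an H3K4me1 domain that was called at all 5 times. 4 weak peaks of the *Smad3* window, at folds from 3.998 to 5.998, were called at D0 only.

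The other peak absent at D0 and W1 and called at W2, W6 and W12 lies 124.7 kb from the *Smad3* start site, beyond the 3' end of *Smad3* and inside an intron of *Aagab* (chr9:63632709-63633310). Its folds in those 3 lists were 9.52, 7.73 and 5.62. No H3K4me1 was called there at D0. A domain of 2400 bp was called at W1, where no H3K27ac peak was, and the later lists held it at 2000 bp, 2600 bp and 2200 bp. In culture the same place was free of a called domain in WT cells without DOX, and with DOX it carried the strongest domain of the whole *Smad3* window in WT SOX9 cells (fold 6.53), with 4.33 under ΔHMG-SOX9 and 3.57 under ΔTA-SOX9. Of the 141 merged H3K27ac elements in the 10 windows, 3 were absent at D0 and called at W2, W6 and W12. Of these 3, the *Aagab* place alone had no culture domain without DOX and one with WT SOX9. The matching shares over the whole H3K27ac lists were not counted, and nothing is read from these counts. Whether the *Aagab* place acts on *Smad3*, *Aagab* or another gene cannot be read from these lists.

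*Skil* (chr3:31095058-31122577, plus strand), which represses SMAD targets and is itself a SMAD target, had its widest cover in both marks at W12. H3K4me1 cover was 25.1%, 18.04%, 31.4%, 26.8% and 39.1%, and H3K27ac 2.27%, 1.07%, 2.26%, 3.57% and 4.16%. W1 was lowest in both. The strongest peak from D0 to W6 lay 0.895 kb upstream of the gene, with folds of 12.7, 6.93, 14.7 and 15.5 and then 8.50 at W12. The peak 38.7 kb downstream of the start site, between *Skil* and *Cldn11* (chr3:31133724-31135677), stood at 7.33 (3.86 to 12.9), 4.62, 7.02 and 8.35 (4.72 to 13.9) and at 20.5 at W12 (13.9 to 29.4), at percentile 99.5 of that list by score. Over background alone it went from between 16.7 and 21.2 to 68.0 (45.2 to 98.3), free of overlap with every earlier list. It was the only one of the 24 peaks called in every list whose fold interval lay above that of D0 at any time. Its nearest start site is that of *Cldn11*, a claudin gene, 14.2 kb away. A peak 33.2 kb upstream was called at W6 (4.77) and W12 (7.79) only. A small H3K4me1 domain 31.5 kb downstream of the start site was called at D0 only.

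*Tgfbi* (chr13:56609523-56639562, plus strand), a secreted matrix protein induced by TGF-beta, had the broadest domain of all. Its start site lay in an H3K4me1 domain of 42800, 31200, 48000, 38200 and 41600 bp, each within the top 1% of its list by p-value, and H3K4me1 cover of the window was 58.1%, 53.7%, 56.5%, 51.6% and 51.4%. Acetylation of the window varied more: H3K27ac cover was 7309, 12062, 18160, 8699 and 7516 bp. W2 was highest, and W12 was close to D0. The peak over the start site went from 7.997 to 8.47, 13.3, 5.96 and 7.79, and that 6.28 kb upstream from 5.998 to 11.6, 13.3, 7.16 and 8.50. The peak over an exon 3.42 kb inside the gene moved the other way, at 19.3 (13.1 to 27.6), 10.8, 8.42 (4.55 to 14.5), 17.9 and 9.92. 19.7 kb upstream (chr13:56587789-56589822) a peak absent at D0 was called at W1 (3.85), W2 (7.72), W6 (10.03) and W12 (5.67), the only peak in the 10 windows called in every list but D0. H3K4me1 lay there at all 5 times. The share of such peaks over the whole lists was not counted. Small peaks at 11.3 kb (fold 3.33) and 73.9 kb (3.998), and H3K4me1 domains at 42.7 kb and 46.5 kb, were called at D0 only.

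A window was counted as changed when its covered bases differed from D0 by at least 1.5-fold. For H3K4me1, 0 of the 10 genes had more and 1 (*Tgfbr1*) had fewer at W1, against 2.54% and 18.2% of all protein-coding windows. At W2 it was 1 with more (*Ltbp1*, all genes 9.09%) and 1 with fewer (*Tgfbr2*, all genes 19.7%). At W6 it was 0 (7.51%) and 1 (*Tgfb2*, all genes 18.7%), and at W12 2 (*Ltbp1* and *Skil*, all genes 7.49%) and 0 (19.8%). For H3K27ac 2 had more at W1 (*Tgfb2* and *Tgfbi*, all genes 19.5%) and 2 fewer (*Tgfbr2* and *Skil*, all genes 18.8%), and 2 had more at W2 (*Ltbp1* and *Tgfbi*, all genes 23.9%) and 1 fewer (*Tgfbr2*, all genes 16.7%). At W6 2 had more (*Tgfbr1* and *Skil*, all genes 28.4%) and 2 fewer (*Tgfb2* and *Tgfbr2*, all genes 13.3%). At W12 3 had more (*Ltbp1*, *Tgfbr1* and *Skil*, all genes 19.9%) and 4 fewer (*Tgfb1*, *Tgfb3*, *Tgfbr2* and *Smad2*, all genes 40.5%). With 10 genes these counts are close to the background shares, and nothing is read from them about the list. With covered bases scaled to the whole list, *Tgfbr1* at W1 (H3K4me1) and *Ltbp1* at W2 and *Skil* at W6 (H3K27ac) were no longer past the limit, and *Tgfb3* at W2 (H3K27ac) was past it as lower. The median log2 ratio to D0 over the 10 genes was -0.27, -0.01, -0.08 and -0.03 for H3K4me1, against -0.24, -0.16, -0.18 and -0.21 over all genes marked in both lists. For H3K27ac it was -0.11, -0.11, -0.08 and -0.13, against -0.02, 0.10, 0.21 and -0.45. All 4 comparisons of a mark share the D0 list.

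Turnover of single intervals in the windows was set beside that of the whole lists. For H3K4me1, 5 of 118 domains at W1 were gained (4.24%, 95% interval 1.39 to 9.61, whole list 5.96%) and 37 of 141 D0 domains lost (26.2%, whole list 27.8%). At W2 22 of 136 were gained (16.2%, whole list 20.0%) and 29 of 141 lost (20.6%, 14.2 to 28.2, whole list 32.4%). At W6 23 of 144 were gained (16.0%, whole list 17.1%) and 28 lost (19.9%, whole list 26.6%), and at W12 29 of 157 were gained (18.5%, whole list 15.6%) and 24 lost (17.0%, 11.2 to 24.3, whole list 31.2%). The share of D0 domains lost at W2 and at W12 was thus below that of the whole list by more than counting error, which does not cover the spread between animals, and neighbouring domains of 1 window are not independent. For H3K27ac 27 of 71 peaks were gained at W1 (38.03%, whole list 41.3%) and 31 of 76 D0 peaks lost (40.8%, whole list 37.4%). At W2 15 of 53 were gained (28.3%, whole list 40.1%) and 34 lost (44.7%, whole list 38.6%). At W6 22 of 66 were gained (33.3%, whole list 39.8%) and 30 lost (39.5%, whole list 37.8%), and at W12 41 of 77 were gained (53.2%, whole list 56.2%) and 39 lost (51.3%, whole list 53.7%). Merged over time, the windows held 153 H3K4me1 elements, of which 75 were called in every list, and 141 H3K27ac elements, of which 24 were in every list and 77 in a single list.

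Nearly all acetylated peaks overlapped an H3K4me1 domain of the same time by at least 1 bp. It was 72 of 76 at D0 (94.7%, whole list 95.9%), 70 of 71 at W1, 53 of 53 at W2 and 66 of 66 at W6. At W12 it was 68 of 77 (88.3%, 79.0 to 94.5), where over the whole list the share had dropped to 73.9%. H3K4me1 covered a start site of 6 (all genes 53.1%), 7 (49.8%), 7 (55.9%), 8 (55.6%) and 6 (47.7%) of the 10 genes in the 5 lists in time order, and in every list all 10 had a domain within 1000 bp, as did 64.3% to 68.9% of all genes. H3K27ac covered a start site of 7 (35.2%), 5 (31.8%), 6 (37.0%), 5 (41.5%) and 6 (22.4%). *Tgfbr1*, *Tgfbr2*, *Smad2* and *Tgfbi* had it in all 5.

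Of 27 other genes of the pathway, 3 passed the 1.5-fold limit in the same direction at all 4 later times of a mark: *Itgb8* and *Ccn2* upward in both marks and *Thbs1* downward in H3K27ac. Over all genes 0.842% did so upward and 4.40% downward in H3K4me1, and 4.01% upward and 3.27% downward in H3K27ac. None of the 10 genes did so in H3K4me1. *Itgb8*, the integrin subunit that pairs with alpha-v to release latent TGF-beta, had 12200 bp of H3K4me1 in its window at D0 and 32200, 43400, 42800 and 31200 bp at W1, W2, W6 and W12. Its H3K27ac cover was 328 bp at D0, in 1 peak, and 5530, 8327, 8824 and 6231 bp later, and an H3K27ac peak covered its start site at every time but D0. *Itgb8* has no other protein-coding gene in its window on chromosome 12. The *Ccn2* window also holds *Enpp1*, and the *Thbs1* window *Fsip1*. *Ccn2*, a matricellular target of TGF-beta, had 14000 bp of H3K4me1 at D0 and 29683, 39083, 36883 and 31083 bp later. No H3K27ac peak lay in its window at D0, and 2, 5, 3 and 3 did later. *Thbs1*, whose product thrombospondin activates latent TGF-beta, fell in H3K27ac from 10410 bp to 5149, 3158, 3115 and 2738 bp, while its H3K4me1 was above D0 at each time (27000 bp at D0 and 29800 to 52000 bp later). Across the 27 genes, H3K4me1 was past the limit upward in 2, 4, 2 and 4 and downward in 0, 1, 3 and 2 at W1, W2, W6 and W12. H3K27ac was past it upward in 6, 9, 11 and 7 and downward in 6, 2, 2 and 8. In culture it was 3 upward and 2 downward with WT SOX9, and 0 and 1 with each of ΔHMG-SOX9 and ΔTA-SOX9. The all-gene shares given for these comparisons apply here too, and nothing is read from these counts about the 27 genes.

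In culture, where the question was which part of SOX9 is needed, none of the 10 windows passed the 1.5-fold limit in any of the 3 comparisons with WT cells without DOX. Only the WT cells have a list without DOX. In the ΔHMG-SOX9 and ΔTA-SOX9 comparisons the SOX9 form, DOX itself and the transduced cells therefore cannot be told apart. With WT SOX9 the same holds for SOX9 and DOX itself. With WT SOX9 the shares over all genes were 15.7% with more and 7.88% with fewer covered bases, with ΔHMG-SOX9 8.21% and 4.60%, and with ΔTA-SOX9 15.8% and 3.81%. The 2 windows that came nearest were *Tgfbr2*, whose share was 12.02% without DOX, 8.15% under WT SOX9, 14.02% under ΔHMG-SOX9 and 13.6% under ΔTA-SOX9, and *Ltbp1*, with 12.1%, 8.57%, 9.35% and 13.9%. Under WT SOX9 both had about 0.7 of the cover without DOX (0.678 and 0.709), and both passed the limit once covered bases were scaled to the whole list. *Tgfbr2* under WT SOX9 was thus the lowest of the 4 conditions. *Skil* was higher in all 3 DOX conditions (9.77%, 12.6%, 12.02% and 12.4%), and *Smad2* (17.5% to 20.98%), *Tgfb2* (11.5% to 12.6%) and *Tgfbr1* (9.98% to 10.2%) moved little. *Tgfb1* (12.4% to 15.0%), *Tgfb3* (12.2% to 16.0%), *Smad3* (19.3% to 23.3%) and *Tgfbi* (10.97% to 15.2%) had no order that the conditions share.

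**Figure D5:**
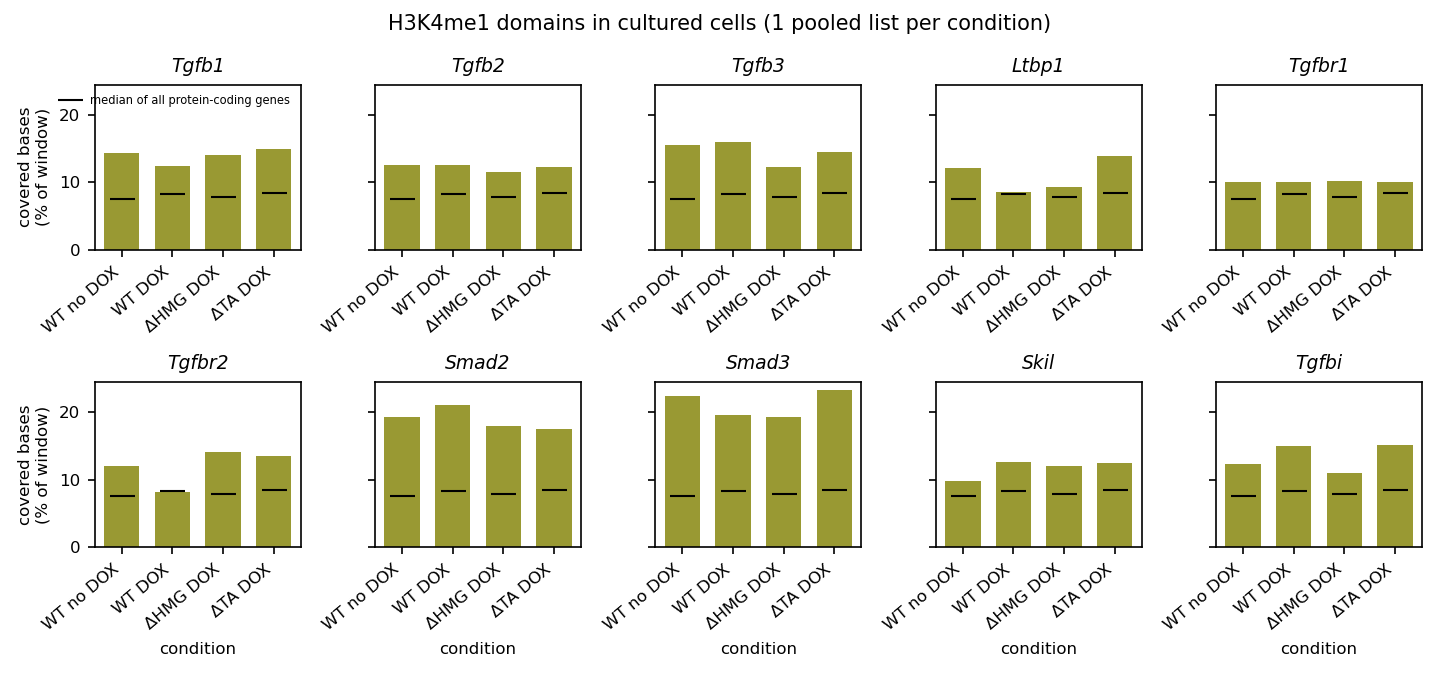
Share of each gene's window covered by H3K4me1 domains in cultured cells (vertical axis, percent) for WT SOX9 without DOX, WT SOX9 with DOX, ΔHMG-SOX9 with DOX and ΔTA-SOX9 with DOX (bars, 1 pooled list each), with the median over all protein-coding genes as a dash. Tgfbr2 is lowest with WT SOX9 and DOX (8.15%), and Tgfbr1 lies between 9.98% and 10.2% in every condition.

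The strongest culture domain of a window stayed in place for some genes and moved for others. For *Tgfb1* it was at the start site of *Tmem91* in all 4 lists (folds 7.38, 5.71, 5.29 and 5.62), and for *Tgfb3* in an intron of *Ttll5* (6.81, 5.40, 6.43 and 6.53). For *Smad3* it lay in intergenic sequence upstream without DOX (5.05) and with ΔTA-SOX9 (5.53) and in introns of *Aagab* with WT SOX9 (6.53) and ΔHMG-SOX9 (5.01). For *Tgfb2* it was intronic except with WT SOX9, where a domain in an intron of *Rrp15* (5.79) was strongest. The strongest domains of *Ltbp1* (6.33 to 7.60), *Tgfbr1* (4.23 to 6.17), *Tgfbr2* (4.93 to 5.78), *Smad2* (5.01 to 5.76), *Skil* (5.15 to 5.69) and *Tgfbi* (5.71 to 7.46) did not lie at 1 place in all 4 lists.

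Domains gained in the 10 windows numbered 43 of 212 with WT SOX9 (20.3%, whole list 29.1%), 33 of 216 with ΔHMG-SOX9 (15.3%, whole list 19.3%) and 36 of 227 with ΔTA-SOX9 (15.9%, whole list 25.8%), and of the 225 domains without DOX 60 (26.7%, whole list 25.1%), 44 (19.6%, whole list 15.6%) and 32 (14.2%, whole list 17.5%) were lost. The gained shares with WT SOX9 (95% interval 15.1 to 26.3) and ΔTA-SOX9 (11.4 to 21.3) lay below those of their whole lists by more than counting error. Counting error does not cover the spread between cultures, and neighbouring domains of a window are not independent. A start site was covered for 3 of the 10 genes without DOX (all genes 26.7%), 4 under WT SOX9 (28.8%), 2 under ΔHMG-SOX9 (23.2%) and 4 under ΔTA-SOX9 (23.2%). Of the 7 H3K4me1 elements of skin that were absent at D0 and called at W2, W6 and W12, 3 had a domain in culture with WT SOX9 and DOX and none without DOX: the *Aagab* intron, the place 44.8 kb upstream of *Ltbp1* (fold 3.31, with no domain under ΔHMG-SOX9 or ΔTA-SOX9) and the place 76.0 kb from the *Tgfbr1* start site (fold 3.95, likewise). Over all such elements the share was 26.7%. Of the 11 called at D0 only none did, and over all elements of that kind 4.86%. Outside the 10 genes, *Itgb8* had 3.07% of its window covered without DOX, 12.9% with WT SOX9, 3.995% under ΔHMG-SOX9 and 3.37% under ΔTA-SOX9, in 6, 22, 6 and 7 domains.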

How the data were processed

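The 38 deposited samples are MINT-ChIP libraries of H3K4me1, H3K27ac and total H3 (total H3 was not analysed here). Per the study's methods the authors split reads by barcode, trimmed and aligned them to mm10, removed duplicates and merged replicates. The tools named in the submitters' processing notes include Bowtie2 2.2.9, SAMtools 1.9, MACS2 2.1.1, SICER 0.0.36 and deepTools 2.5.4. Caller settings and controls are not given in the sources used here. The name of the W12 H3K27ac list alone carries an extra tag that may stand for a cutoff. Its median peak width was 476 bp, against 635 to 821 bp in the other H3K27ac lists. Whether it was called with other settings than D0 is not known. Each deposited skin H3K4me1 domain has a p-value. In the deposited H3K27ac and culture lists each interval has a score, its fold over background and the −log10 of its p, with the q-value not used. The 14 barcode files were not used. Depth per list is not stated. For H3K27ac the pileup (whole fragments) and background were recovered from the fold and its p.

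Intervals overlapping a window by at least 1 bp were counted and clipped to it, and a window was called changed at 1.5-fold in covered bases. Skin H3K4me1 domains were ranked by p-value and then width, other intervals by score and then width. Exact 95% Poisson and Clopper-Pearson intervals used scipy 1.17.1, with python 3.11.15, numpy 2.4.6, pandas 2.3.3 and matplotlib 3.10.9. Calls were tested on simulated data. Groups came from the labels, and the list names gave each list its condition. The genes named are the 10 members, each with its strongest peaks and its intervals called at D0 only or absent at D0 and kept from W2 on, and, of 27 other pathway genes, those past the limit in 1 direction at all 4 later times of a mark. Other peaks named (at member start sites, in every list, or late at *Skil*) were chosen after their values were seen. The members and lists were chosen with earlier results of these data known.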

Additional observations from a re-analysis of the deposited data

How the results depend on the processing

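No paired analysis was possible because replicates were merged before the lists were made. No call of a gene by covered bases changed direction, and requiring an overlap of 50% kept all 22 counts of gained and lost intervals within 1.5 times. *Tgfbr2* H3K27ac stayed past the limit at all 4 times, at log2 ratios from -0.65 to -2.12. The causes of the following changes were not tested. With flanks of 10 kb, genes with more H3K4me1 went from 2 to 1 at W12 and from 1 to 0 at W2 and genes with fewer from 1 to 2 at W6. For H3K27ac fewer went from 1 to 2 at W2 and more from 2 to 0 at W6, and in culture fewer went from 0 to 2 with WT SOX9 and more from 0 to 1 with ΔHMG-SOX9 and with ΔTA-SOX9. Counting start sites within 1000 bp gave 10 genes for H3K4me1 at D0 and W12 (from 6), 8 for H3K27ac at W1 and W6 (from 5), and in culture 8 without DOX (from 3), 8 with WT SOX9 (from 4), 7 with ΔHMG-SOX9 (from 2) and 7 with ΔTA-SOX9 (from 4). Keeping only intervals above the median strength leaves fewer to count: H3K4me1 gained fell to 13, 14 and 16 at W2, W6 and W12 and lost to 15, 19, 14 and 13, H3K27ac gained to 6, 9, 8 and 20 and lost to 10, 11, 9 and 12, and culture gained to 20 (WT) and 21 (ΔHMG) and lost to 34 (WT). Genes with fewer H3K4me1 bases became 2 at W2, W6 and W12 and with more 1 at W6, genes with more H3K27ac 5 at W12 and with fewer 3 at W2, and in culture 1 had fewer with WT SOX9. Joining peaks under 1000 bp apart left 20 H3K27ac lost at W1 and 9 gained at W2. Lists of equal length gave 1 gene with fewer with WT SOX9. Scaling to the list's covered bases gave, for H3K27ac, 1 with more at W6 and at W2 and 2 with fewer at W2, for H3K4me1 0 with fewer at W1, and in culture 2 with fewer with WT SOX9 (*Tgfbr2* and *Ltbp1*). Pileup over background in place of fold was chosen after seeing the data: of the 24 peaks called in every list, 15, 11, 18 and 14 were below D0 at W1, W2, W6 and W12, against 19, 15, 12 and 16 by fold, so that at W2 most were below D0 by fold and most (13) above it over background, and at W6 an even split became 18 below and 6 above. Log2 ratios could not be given for H3K27ac where 1 of the lists had no base left, for *Tgfb2* at W2 and W6 with flanks of 10 kb and, above the median strength, for *Tgfbr1* at W2 and *Smad2* at W6. Depth limits weak peaks most at W1.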
